A study of Homo sapiens with 18 samples.

Results

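The transcripts of 10 Krüppel-like factors (KLF2, KLF3, KLF4, KLF5, KLF6, KLF9, KLF10, KLF11, KLF13 and KLF16) were followed through heat shock and silencing of Lonp1 in SW620 cells, a human colon cancer line. Their rows were taken by gene symbol from a table of 26485 symbols, and all 10 passed the filter on low counts that left 12832 genes for testing. The study asked whether Lonp1, a protease of mitochondria, also shapes the heat shock response in the nucleus. RNAseq was run on 18 libraries in 6 groups of 3, described by the authors as independent biological replicates. SW620 cells received a scramble siRNA or siRNA against Lonp1 (siLonp1), and each arm was kept at 37 °C (Ctrl), exposed to 42 °C for 1 h (HS), or exposed to 42 °C for 1 h and returned to 37 °C for 1 h (HS+REC). All 6 groups carried an siRNA, and no library of cells without one was analysed. The siRNA sequence used for RNAseq is not given in the sources used here, and 1 cell line was studied.

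Krüppel-like factors are transcription factors that bind GC-rich and CACCC elements of promoters and enhancers through a run of zinc fingers at their C-terminus. The rest of each protein recruits co-activators or co-repressors, so relatives with nearly the same DNA preference can raise or lower transcription. In the lining of the gut, KLF5 is known from dividing crypt cells and KLF4 from differentiated surface cells. Several family members are early response genes, whose short-lived transcripts change soon after a stimulus.

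The genes lie apart in the genome, at these positions of hg38 in GENCODE v44. KLF2 is at chr19:16324826-16328685 and KLF16 at chr19:1852399-1863579, on opposite strands of the same chromosome. KLF4 at chr9:107484852-107490482 and KLF9 at chr9:70384604-70414657 also share one. The others are KLF3 (chr4:38664197-38701517), KLF5 (chr13:73054976-73077541), KLF6 (chr10:3775996-3785281), KLF10 (chr8:102648784-102655725), KLF11 (chr2:10042849-10054836) and KLF13 (chr15:31326835-31435665). Annotated genes overlap KLF3, KLF4, KLF11, KLF13 and KLF16, and of these only KLF3-AS1 had a row of its own in the count table. Overlap was taken over whole gene spans and not over exons, so whether reads of the rest were counted to the KLF gene was not tested. The strand setting of the counting is not given in the sources used here.

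Levels are given as CPM, the count of a gene relative to the library total after scaling by the TMM factors of edgeR. Library totals lay between 30815860 and 47279297 counts. LONP1, the targeted gene, averaged 220.8 ± 5.56 CPM (SD, n = 3) in Ctrl scramble and 20.4 ± 1.75 CPM in Ctrl siLonp1, and every siLonp1 library lay under every scramble library. The level left in siLonp1 differed between conditions, at 11.7 ± 0.154 CPM in HS and 27.2 ± 1.64 CPM in HS+REC, while the scramble groups averaged 214.0 ± 15.7 and 218.4 ± 18.7 CPM. The log2 fold change of LONP1 with siLonp1 was -3.43 at 37 °C, -4.19 after HS and -3.01 after recovery (edgeR adjusted p of at most 2.0e-18 in each). Cell type markers were read as CPM before the TMM scaling. Of 12 markers of colon epithelium, 7 (EPCAM, KRT8, KRT18, KRT19, CDH1, VIL1 and CDX2) were above 1 CPM in all libraries, LGALS4 stayed under 1 CPM in all of them and CDX1 had no count in any. Endothelial markers summed to at most 1.52 CPM. The sum of 3 leukocyte markers lay between 0.248 and 0.511 CPM in the Ctrl libraries of both arms, and with scramble siRNA between 0.779 and 0.807 CPM in HS and 0.558 and 1.23 CPM in HS+REC. With siLonp1 it lay between 1.21 and 1.69 CPM in HS and 1.35 and 1.8 CPM in HS+REC. The heated libraries of both arms lay above those of Ctrl without overlap. CD14 made up nearly all of the sum, since PTPRC and CD3E had at most 3 counts in a library. Of 6 fibroblast and muscle markers only COL1A1 was above 1 CPM in all libraries, COL3A1 had 0 counts and COL1A2 at most 2. The sum of these 6 lay between 11.2 and 15.4 CPM in the Ctrl libraries of both arms, between 16.5 and 22.8 CPM in HS and between 32 and 37.3 CPM in HS+REC. The part of these sums in the results was not tested.

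Levels of different genes were compared only per length, as CPM per kb of exon of the MANE transcript. In Ctrl scramble, KLF5 stood first at 48.9 ± 3.51 CPM per kb (SD, n = 3), followed by KLF10 at 36.2 ± 1.58. KLF16 at 15.9, KLF3 at 12.8, KLF13 at 9.52, KLF6 at 8.11 and KLF4 at 5.40 CPM per kb formed a middle range. KLF11 at 2.06, KLF9 at 1.38 and KLF2 at 0.8075 CPM per kb were lowest. The 3 libraries of each gene did not overlap those of its neighbours in this order. After HS the order turned at the top, and KLF10 led KLF5 with 123 against 77.9 CPM per kb in scramble and 149 against 109.7 in siLonp1. In HS+REC, KLF5 was again first in both arms. KLF6 moved from the sixth place in Ctrl scramble to the third in HS+REC scramble, at 17.95 CPM per kb. Neighbours whose libraries overlapped included KLF6 and KLF3 in Ctrl siLonp1, KLF16 and KLF6 in HS scramble, and KLF4 and KLF16 in HS+REC scramble. Overlap was also present between KLF16 and KLF3 and between KLF3 and KLF6 in HS siLonp1, and between KLF3 and KLF16 in HS+REC siLonp1.

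**Figure D1:**
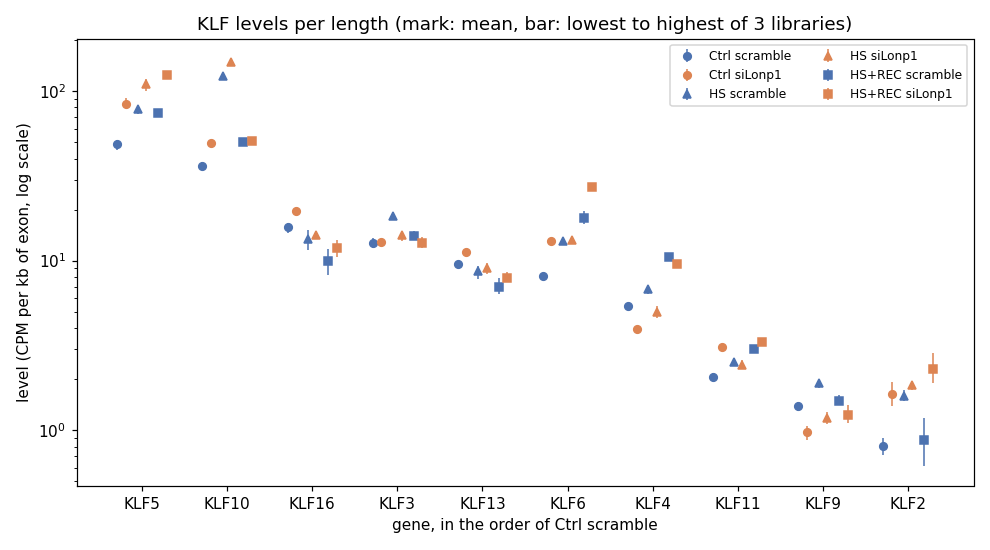
Level of each KLF gene per length (y axis, CPM per kb of exon, log scale) by gene (x axis, in the order of Ctrl scramble), with a mark for the mean of each of the 6 groups and a bar from the lowest to the highest of its 3 libraries. KLF5 and KLF10 stand above the rest in every group, KLF10 is first in both HS groups, and KLF9 and KLF2 are the lowest pair.

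Most of the 10 genes were higher after 1 h at 42 °C in scramble-treated cells, KLF10 by far the most. With the edgeR quasi-likelihood test and an FDR of at most 0.05 over all genes tested, 8 of the 10 genes were higher in HS than in Ctrl, and 0 were lower (KLF13 at an adjusted p of 0.176 and KLF16 at 0.0877 did not pass). Over all genes tested, 18.6% were called higher and 17.3% lower. The median log2 fold change was 0.49 over the 10 genes and -0.01 over all genes tested. KLF10 alone also passed a 2-fold change, which 3.30% of all genes did. In these bulk libraries, fewer cells with a transcript and less transcript per cell cannot be told apart.

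In siLonp1-treated cells the same comparison split the family. KLF4, KLF5, KLF9 and KLF10 were higher in HS than in Ctrl, KLF11, KLF13 and KLF16 were lower, and KLF2, KLF3 and KLF6 did not pass. Of all genes, 20.2% were called higher and 22.1% lower in this arm, and 4.57% also passed the 2-fold change, as KLF10 did. The median over the 10 genes was 0.15, against 0.000391 over all genes.

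After recovery, 5 genes of the family were higher than in Ctrl and 2 lower in each arm. In scramble these were KLF4, KLF5, KLF6, KLF10 and KLF11 against KLF13 and KLF16, where 21.8% of all genes were called higher and 20.5% lower. KLF6 passed the 2-fold change there, beside 4.46% of all genes. In siLonp1, KLF2, KLF4, KLF5, KLF6 and KLF9 were higher and KLF13 and KLF16 again lower, with 24.6% of all genes called higher and 26.6% lower. KLF4 and KLF6 passed the 2-fold change in that arm, as did 5.71% of all genes.

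Between HS and HS+REC the scramble arm showed 3 genes higher (KLF4, KLF6 and KLF11) and 6 lower (KLF2, KLF3, KLF9, KLF10, KLF13 and KLF16), leaving only KLF5 uncalled. The background was 14.2% of all genes higher, 12.7% lower and 1.90% past the 2-fold change, which KLF10 passed. In the siLonp1 arm, 4 genes were higher (KLF4, KLF5, KLF6 and KLF11) and KLF10 was lower, where 16.3% of all genes were higher and 15.6% lower. KLF6 and KLF10 passed the 2-fold change there, beside 2.57% of all genes. The log2 fold change of KLF6 lay between 0.999 and 1.07 in the fits without 1 library, so it did not pass in each fit. Several differences of this arm that did not pass lay near the limit. KLF3 (-0.15, adjusted p = 0.0994) passed with library size only (0.0477) and without HS siLonp1 replicate 1 (adjusted p = 0.0404) or HS+REC siLonp1 replicate 2 (0.0296). KLF13 (-0.20, adjusted p = 0.0634) passed with library size only (0.0392), with no filter on low counts (0.0173) and without HS scramble replicate 3 (0.0383), HS siLonp1 replicate 1 (0.0282), HS+REC scramble replicate 1 (0.0347) or HS+REC siLonp1 replicate 3 (0.0362). KLF16 (-0.25, adjusted p = 0.074) passed with library size only (0.0429), with no filter (0.00598), with only the groups compared (0.0377) and without HS+REC scramble replicate 2 (0.0427) or 3 (0.0397) or HS+REC siLonp1 replicate 1 (0.0289).

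Silencing of Lonp1 at 37 °C was accompanied by 7 genes of the family higher (KLF2, KLF5, KLF6, KLF10, KLF11, KLF13 and KLF16) and 2 lower (KLF4 and KLF9), with KLF3 uncalled. Of all genes, 26.3% were higher and 22.9% lower, and 4.17% passed the 2-fold change, as KLF2 did. In HS, KLF5 and KLF10 were higher with siLonp1 and KLF3, KLF4 and KLF9 lower, against 28.1% and 26.7% of all genes. None of the 10 passed the 2-fold change in HS, where 4.17% of all genes did. In HS+REC, KLF2, KLF5, KLF6 and KLF16 were higher and KLF9 lower, against 26.8% and 27.3% of all genes, and KLF2 passed the 2-fold change, as 4.18% of all genes did. Of the 10, KLF5 was higher and KLF9 lower with siLonp1 in all 3 conditions. The HS effect in scramble and the effect of siLonp1 at 37 °C share the Ctrl scramble libraries, and no overlap between them is drawn.

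**Figure D2:**
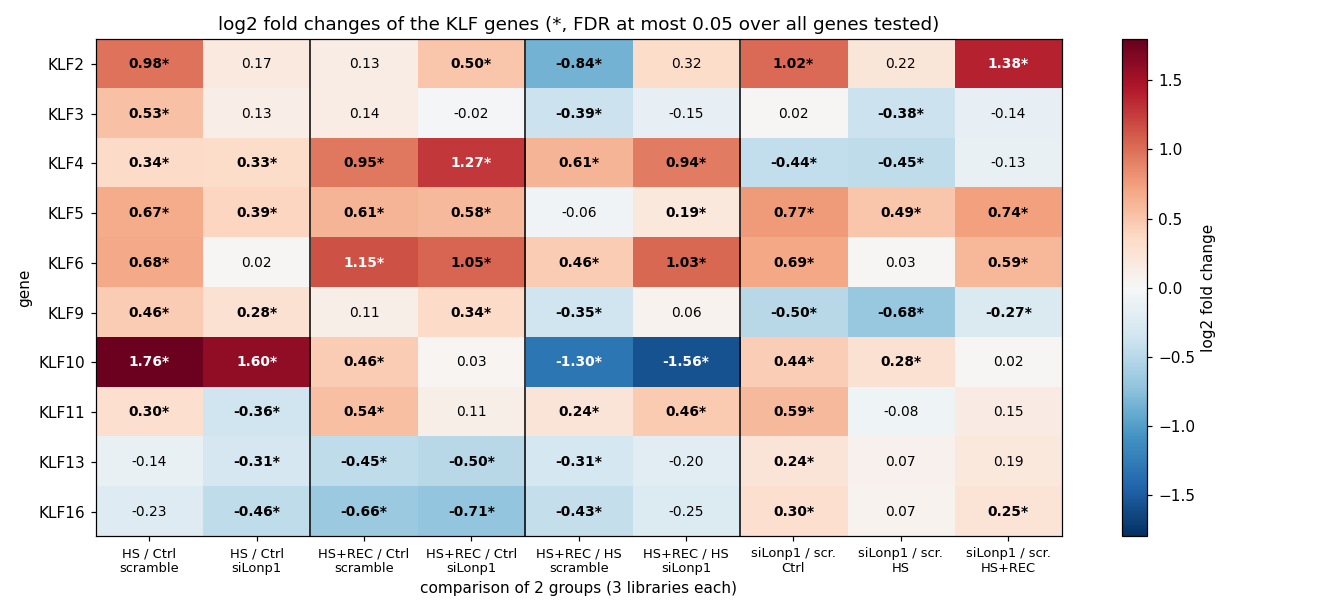
Log2 fold change (colour and printed number) of each KLF gene (rows) in the 9 comparisons of 2 groups of 3 libraries (columns), with an asterisk where the FDR over all genes tested was at most 0.05. KLF10 holds the largest rise after HS, KLF13 and KLF16 carry no positive call in the first 6 columns, and the siLonp1 columns show KLF5 called higher and KLF9 called lower throughout.

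KLF10 and KLF11, known as TGF-β inducible early genes, encode repressors that recruit the SIN3A and histone deacetylase complex. KLF10 was measured at 110.6, 101.5 and 104.6 CPM in scramble-treated cells at 37 °C, and at 370.5, 358.7 and 346.7 CPM after HS. In HS+REC scramble it was back at 139.3, 151.7 and 145.0 CPM. Each HS library stood far above both other conditions, and the HS+REC libraries stayed above those of Ctrl.

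The rise of KLF10 with HS in scramble was 1.76 on the log2 scale (standard error 0.06, 3.40-fold, adjusted p = 2.6e-17), and from HS to HS+REC it fell by 1.30 (adjusted p = 3.3e-14). What remained above Ctrl after recovery was 0.46 (adjusted p = 3.7e-07). In the siLonp1 arm KLF10 read 140.7, 149.5 and 140.5 CPM in Ctrl, 417.8, 449.2 and 435.8 CPM in HS, and 151.2, 148.5 and 141.0 CPM in HS+REC. Here HS+REC and Ctrl overlapped, and the difference of 0.03 (standard error 0.06, adjusted p = 0.648) did not pass. The rise with HS was 1.60 (adjusted p = 1.1e-16). siLonp1 raised KLF10 by 0.44 at 37 °C (adjusted p = 7.9e-07) and by 0.28 in HS (adjusted p = 1.9e-04), and the difference of 0.02 in HS+REC did not pass (adjusted p = 0.831).

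KLF11 was lower in level and moved in another order. In scramble it read 8.15, 7.93 and 8.82 CPM in Ctrl, 9.69, 10.3 and 10.7 CPM in HS and 11.5, 12.8 and 11.8 CPM in HS+REC, so that the 3 groups did not overlap. It rose by 0.30 with HS (standard error 0.08, adjusted p = 0.00457) and was 0.54 above Ctrl after recovery (adjusted p = 5.5e-06). In siLonp1 the Ctrl libraries were already at 12.3, 12.9 and 12.2 CPM, 0.59 above scramble (adjusted p = 2.1e-06). HS then lowered KLF11 to 9.42, 10.4 and 9.26 CPM, a log2 fold change of -0.36 (adjusted p = 6.4e-04). In HS+REC siLonp1 it was back at 12.9, 13.2 and 14.1 CPM, 0.46 above HS (adjusted p = 5.1e-05). The further 0.24 from HS to HS+REC in scramble (adjusted p = 0.025) was lost without HS scramble replicate 1 (0.126), HS scramble replicate 2 (0.0571) or HS+REC scramble replicate 2 (0.115), the numbers in brackets being the adjusted p. It was also lost with scaling by library size only (0.0921), with no filter on low counts (0.0836) and with only the groups compared (0.0956).

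KLF6 encodes an activator that binds core promoter elements and is known as a tumour suppressor. It read, with scramble siRNA, 37.4, 35.6 and 38.6 CPM in Ctrl, 59.6, 58.3 and 61.4 CPM in HS and 89.7, 82.3 and 75.2 CPM in HS+REC. The groups did not overlap, and the level climbed at both steps. The log2 fold change against Ctrl was 0.68 in HS (standard error 0.07, adjusted p = 1.4e-08) and 1.15 in HS+REC (adjusted p = 1.0e-12).

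With siLonp1, KLF6 stood at 57.9, 62.6 and 60.1 CPM in Ctrl and at 58.3, 62.6 and 61.9 CPM in HS. These groups overlapped fully, with a log2 fold change of 0.02 (standard error 0.06, adjusted p = 0.86). In HS+REC siLonp1 KLF6 reached 127.2, 128.5 and 117.4 CPM, above every other library, 1.03 above HS (adjusted p = 1.6e-11) and 0.59 above HS+REC scramble (adjusted p = 5.5e-08). At 37 °C siLonp1 had raised it by 0.69 (adjusted p = 1.0e-08), and in HS the arms differed by 0.03 (adjusted p = 0.739).

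KLF4, an activator of the cell cycle inhibitor CDKN1A in colon epithelium and 1 of the classic reprogramming factors, rose at both steps in both arms. It read, with scramble siRNA, 15.5, 15.4 and 16.6 CPM in Ctrl, 20.6, 20.9 and 18.8 CPM in HS and 31.1, 29.7 and 31.3 CPM in HS+REC. In siLonp1 the libraries read 11.3, 11.7 and 11.9 CPM in Ctrl, 14.8, 15.8 and 13.4 CPM in HS, and 29.7, 28.2 and 26.4 CPM in HS+REC. No 2 conditions of an arm overlapped. KLF4 rose by 0.34 with HS in scramble (standard error 0.07, adjusted p = 6.0e-04) and by 0.33 in siLonp1 (adjusted p = 9.2e-04). Against Ctrl, HS+REC was higher by 0.95 in scramble (adjusted p = 1.3e-10) and by 1.27 in siLonp1 (standard error 0.07, 2.42-fold, adjusted p = 1.1e-12).

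siLonp1 lowered KLF4 in Ctrl, where 7 of the 10 genes were raised, and in HS. The log2 fold change was -0.44 at 37 °C (adjusted p = 3.7e-05) and -0.45 in HS (adjusted p = 1.8e-05). In HS+REC the difference was -0.13 (standard error 0.07) and did not pass (though it did with library size only, at an adjusted p of 0.0181), and the arms nearly touched without overlapping.

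KLF5, which drives proliferation of crypt cells, was the most abundant of the 10 per length outside HS. At 37 °C it read 172.3, 150.4 and 168.6 CPM with scramble siRNA and 264.4, 304.1 and 270.4 CPM with siLonp1. HS gave 272.8, 265.9 and 243.6 CPM in scramble and 337.0, 395.5 and 369.6 CPM in siLonp1. HS+REC gave 263.2, 249.8 and 236.9 CPM in scramble and 422.3, 441.1 and 393.3 CPM in siLonp1. Every siLonp1 library lay above every scramble library of its condition.

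The effect of siLonp1 on KLF5 was 0.77 at 37 °C (standard error 0.07, adjusted p = 1.1e-08), 0.49 in HS (adjusted p = 5.3e-06) and 0.74 in HS+REC (adjusted p = 1.4e-08). HS raised KLF5 by 0.67 in scramble (adjusted p = 1.0e-07) and by 0.39 in siLonp1 (adjusted p = 1.0e-04), and the levels in HS+REC were 0.61 and 0.58 above Ctrl (adjusted p = 3.2e-07 and 3.9e-07). From HS to HS+REC the scramble arm differed by -0.06 (adjusted p = 0.59). The call of 0.19 in siLonp1 (adjusted p = 0.0477) rested close to the limit. It was lost with library size only (adjusted p = 0.107), with no filter (0.0667), with CPM above 1 in all libraries (0.0501) and with only the groups compared (0.0581). It was also lost in 11 of 18 fits that left out 1 library, at an adjusted p between 0.0509 and 0.221, and of those fits held only without replicate 2 of Ctrl scramble, Ctrl siLonp1 or HS siLonp1, HS scramble replicate 3, HS+REC scramble replicates 1 or 3, or HS+REC siLonp1 replicate 3.

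**Figure D3:**
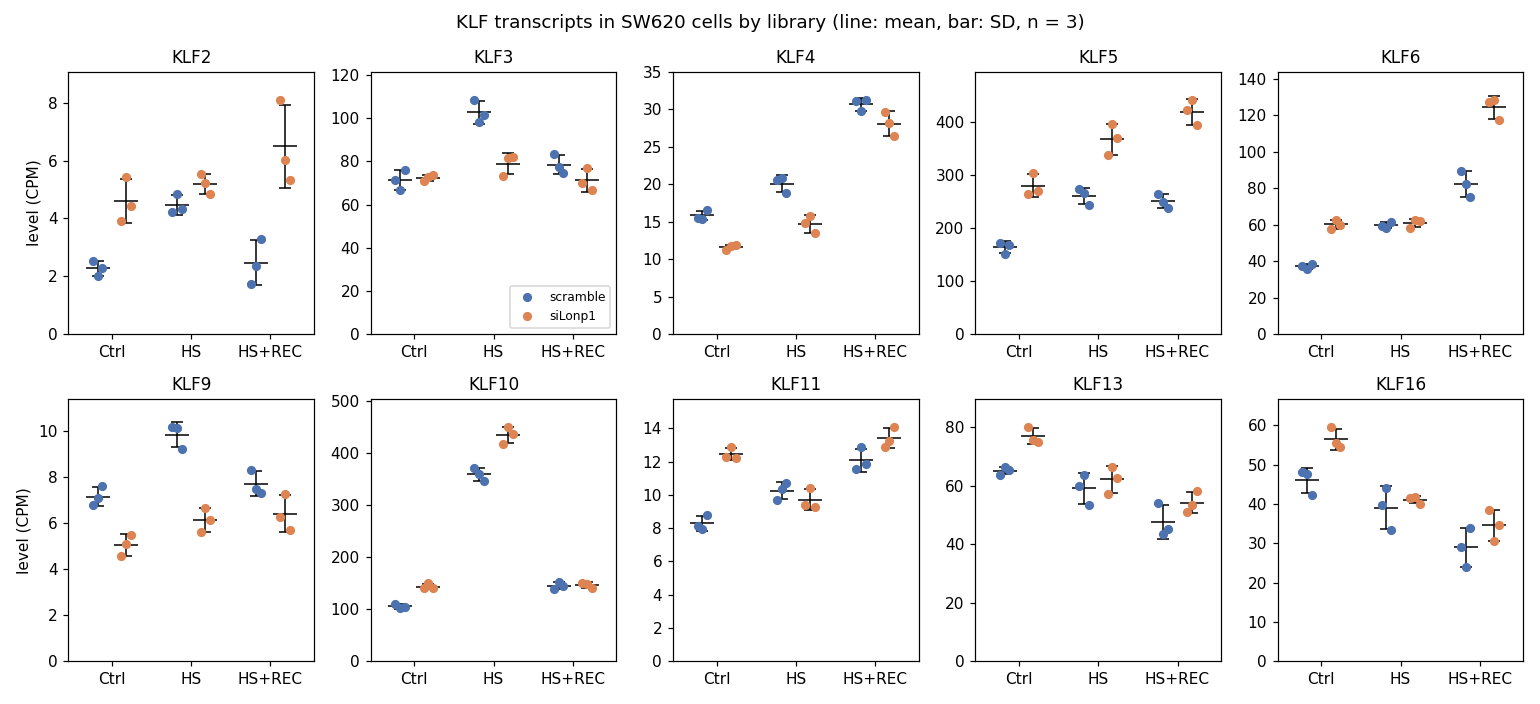
Level of each KLF gene (y axis, CPM, from 0) by condition (x axis) in scramble (blue) and siLonp1 (orange) libraries, with a point for each library, a line for the mean and a bar for the SD of 3. KLF10 peaks in HS at 346.7 to 449.2 CPM, KLF4 and KLF6 peak in HS+REC, and KLF13 and KLF16 are lowest in HS+REC.

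KLF2, a factor known from endothelium under flow and from resting T cells, was the lowest of the 10 in Ctrl scramble and had between 75 and 340 counts in a library. In scramble it read 2.53, 2.02 and 2.28 CPM in Ctrl, 4.21, 4.84 and 4.33 CPM in HS, and 1.74, 2.37 and 3.30 CPM in HS+REC. It thus stood apart in HS alone, with a rise of 0.98 (standard error 0.19, adjusted p = 2.1e-04) and a fall to HS+REC of -0.84 (adjusted p = 0.00106), while HS+REC and Ctrl overlapped. The difference of HS+REC from Ctrl was 0.13, and it was -0.15 without HS+REC scramble replicate 3.

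In siLonp1, KLF2 read 3.92, 5.44 and 4.44 CPM in Ctrl, 5.53, 5.21 and 4.83 CPM in HS, and 8.09, 6.03 and 5.34 CPM in HS+REC. Each condition overlapped the next, and the change with HS was 0.17 (standard error 0.17, adjusted p = 0.441). The rise of 0.50 in HS+REC against Ctrl (adjusted p = 0.0147) was lost without Ctrl siLonp1 replicate 1 (adjusted p = 0.0857) or HS+REC siLonp1 replicate 1 (adjusted p = 0.149). siLonp1 raised KLF2 by 1.02 at 37 °C (standard error 0.19, 2.03-fold, adjusted p = 9.0e-05) and by 1.38 in HS+REC (2.61-fold, adjusted p = 7.5e-07), with no overlap of the arms in either. In HS the difference was 0.22 (adjusted p = 0.291) and the arms overlapped narrowly.

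The 250 bases upstream of the start of KLF2 are shown because KLF2 had the largest fold change with siLonp1 in the family. They lie at chr19:16324576-16324825 on the + strand of GRCh38.p14, as RefSeq gives them, and capitals mark GC boxes, GGGCGG on either strand, the kind of element that the family and its SP relatives bind.
KLF2: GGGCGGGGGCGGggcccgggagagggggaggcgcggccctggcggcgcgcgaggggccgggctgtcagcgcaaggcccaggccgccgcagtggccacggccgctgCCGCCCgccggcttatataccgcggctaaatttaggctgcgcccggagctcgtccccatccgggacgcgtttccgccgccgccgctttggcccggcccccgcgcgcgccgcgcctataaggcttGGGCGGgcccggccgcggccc
The 4 boxes start 250, 244, 145 and 21 bases before the start site, the first pair sharing no base. The window of 300 bases used for the search, from 250 before to 50 after the start, held 6 GC boxes in KLF2 and was 80.7% G and C, against a median of 58.7% over 35116 promoters.

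KLF3 and KLF9 had their highest level in HS scramble. KLF3, a repressor that works through CtBP, read, with scramble siRNA, 71.4, 66.8 and 75.9 CPM in Ctrl, 108.5, 98.4 and 101.3 CPM in HS and 83.6, 77.3 and 74.7 CPM in HS+REC. The HS libraries lay above all others of the series, and the rise was 0.53 (standard error 0.07, adjusted p = 1.3e-06), followed by a fall of -0.39 to HS+REC (adjusted p = 9.9e-05). In siLonp1, KLF3 read between 66.6 and 82.2 CPM in the 9 libraries. The change with HS was 0.13 there (standard error 0.07, adjusted p = 0.145), and siLonp1 lowered KLF3 in HS by -0.38 (adjusted p = 5.6e-05) while the difference at 37 °C was 0.02 (adjusted p = 0.831). In HS+REC the difference of -0.14 (adjusted p = 0.0814) passed with library size only (0.0119) and without HS+REC scramble replicate 3 (0.0489) or HS+REC siLonp1 replicate 2 (0.0226). The antisense gene KLF3-AS1, which overlaps it, had 30 to 60 counts per library, against at least 2606 counts for KLF3.

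KLF9, a repressor of the SIN3A-binding group that glucocorticoid and thyroid hormones induce, read, with scramble siRNA, 6.78, 7.11 and 7.62 CPM in Ctrl, 10.2, 10.2 and 9.23 CPM in HS and 8.34, 7.51 and 7.33 CPM in HS+REC. The libraries of siLonp1 read 4.58, 5.12 and 5.52 CPM in Ctrl, 5.63, 6.65 and 6.17 CPM in HS, and 6.28, 7.30 and 5.70 CPM in HS+REC. The siLonp1 libraries of each condition lay under its scramble libraries, by -0.50 at 37 °C (standard error 0.10, adjusted p = 4.0e-04), -0.68 in HS (adjusted p = 5.7e-06) and -0.27 in HS+REC (adjusted p = 0.0302). The last call was lost without HS+REC scramble replicate 1 (adjusted p = 0.133), without HS+REC siLonp1 replicate 1 (0.0692) or 3 (0.155), or with only the groups compared (0.0875).

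HS raised KLF9 by 0.46 in scramble (adjusted p = 6.6e-04). In siLonp1 the rise of 0.28 (adjusted p = 0.0397) was lost without Ctrl siLonp1 replicate 1 (adjusted p = 0.175) or 2 (0.0737) and without HS siLonp1 replicate 2 (0.16) or 3 (0.0831), and with library size only (0.094) or no filter (0.0529). The 0.34 of HS+REC over Ctrl in siLonp1 (adjusted p = 0.00965) was lost without Ctrl siLonp1 replicate 1 (adjusted p = 0.0615) or HS+REC siLonp1 replicate 2 (0.0752).

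KLF13 and KLF16, close relatives of KLF9 that also recruit SIN3A, were the 2 genes called lower than Ctrl after recovery. KLF13 read, with scramble siRNA, 63.8, 66.4 and 65.4 CPM in Ctrl, 60.1, 63.8 and 53.4 CPM in HS and 54.2, 43.7 and 45.1 CPM in HS+REC. KLF16 read, with scramble siRNA, 48.0, 47.7 and 42.2 CPM in Ctrl, 39.8, 44.1 and 33.4 CPM in HS and 29.1, 24.0 and 34.0 CPM in HS+REC. For both genes every HS+REC library lay under every Ctrl library, and the HS libraries lay between, overlapping HS+REC for both genes and Ctrl for KLF16. The log2 fold change in HS+REC was -0.45 for KLF13 (standard error 0.08, adjusted p = 6.3e-05) and -0.66 for KLF16 (standard error 0.10, adjusted p = 1.7e-05). In HS it was -0.14 for KLF13 and -0.23 for KLF16, and neither passed. KLF16 did pass in HS with no filter (adjusted p = 0.0299) and without HS scramble replicate 2 (0.0329) or HS+REC scramble replicate 3 (0.0498).

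The siLonp1 arm repeated the order from higher starting points. KLF13 read 80.0, 75.7 and 75.1 CPM in Ctrl, 57.3, 66.6 and 62.7 CPM in HS, and 51.2, 53.3 and 58.3 CPM in HS+REC. KLF16 read 59.5, 55.6 and 54.4 CPM in Ctrl, 41.5, 41.7 and 40.1 CPM in HS, and 38.6, 30.5 and 34.6 CPM in HS+REC. Both heated conditions lay under Ctrl without overlap for both genes. The falls were -0.31 and -0.46 in HS (adjusted p = 0.00284 for KLF13 and 8.8e-04 for KLF16) and -0.50 and -0.71 in HS+REC (adjusted p = 1.1e-05 and 4.5e-06).

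siLonp1 itself raised KLF13 by 0.24 (adjusted p = 0.0149) and KLF16 by 0.30 (adjusted p = 0.02) at 37 °C. Without Ctrl siLonp1 replicate 1 neither passed (adjusted p = 0.0627 for KLF13 and 0.0793 for KLF16), nor did KLF13 without Ctrl scramble replicate 1 (0.0508) or KLF16 without Ctrl scramble replicate 3 (0.101). With library size only both were lost (adjusted p = 0.103 for KLF13 and 0.0782 for KLF16). In HS+REC the arms overlapped for both, and KLF13 (0.19, adjusted p = 0.0512) and KLF16 (0.25, adjusted p = 0.0491) lay on either side of the limit. KLF13 passed with RLE size factors (0.0465), DESeq2 (0.0408) and no filter (0.0401), and without replicate 2 (0.0474) or 3 (0.038) of HS scramble, HS siLonp1 replicate 1 (0.0437), HS+REC scramble replicate 1 (0.00454) or HS+REC siLonp1 replicate 1 (0.0421). KLF16 was lost with library size only (0.158), CPM above 1 in all libraries (0.0607) and only the groups compared (0.119). Of the fits without 1 library it held only without HS scramble replicate 2 or 3, HS+REC scramble replicate 3 or HS+REC siLonp1 replicate 2, and the other 14 fits gave an adjusted p between 0.0503 and 0.3.

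The upstream sequences of KLF13 and KLF16 are shown together because both genes fell in the same comparisons. They are 250 bases each of GRCh38.p14 from RefSeq, chr15:31326585-31326834 on the + strand for KLF13 and chr19:1863580-1863829 on the - strand for KLF16, with GC boxes in capitals.
KLF13: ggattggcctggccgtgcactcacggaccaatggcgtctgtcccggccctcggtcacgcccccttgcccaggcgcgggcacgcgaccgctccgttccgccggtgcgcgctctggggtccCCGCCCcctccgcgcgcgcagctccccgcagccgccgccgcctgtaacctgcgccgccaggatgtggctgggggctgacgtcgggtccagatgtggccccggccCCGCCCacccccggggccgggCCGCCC
KLF16: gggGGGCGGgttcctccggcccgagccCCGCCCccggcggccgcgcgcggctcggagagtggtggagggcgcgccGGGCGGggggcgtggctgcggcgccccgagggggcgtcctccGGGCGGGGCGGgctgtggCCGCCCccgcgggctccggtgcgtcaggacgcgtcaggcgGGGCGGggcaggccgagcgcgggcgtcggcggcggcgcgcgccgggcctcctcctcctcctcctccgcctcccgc
KLF13 has 3 boxes in these bases, at 131, 27 and 6 before its start, and the last base of the box at 27 is the first base of a CACCC box. KLF16 has 7, the nearest 75 bases before its start. Their windows were 78.3% and 86.0% G and C.

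Motifs were searched on both strands in the RefSeq windows of 8 of the 10 genes, with 10 start sites in all, and KLF3 and KLF10 had no entry. A GC box was present in 7 of the 8 genes (KLF9 had none) and in 45.0% of all promoters. The heat shock element core GAANNTTC was in the windows of 0 of the 8 and in 6.77% of all promoters. The shorter site TGACG of the cAMP response element was present in 5 genes (KLF4, KLF5, KLF11, KLF13 and KLF16) and in 24.6% of promoters, and its full form TGACGTCA, which contains the shorter one, in KLF11 and in 1.85%. CACCC was found in 3 genes (KLF5, KLF11 and KLF13) and 59.9% of promoters, TATAAA in KLF5 and 11.5%, and the serum response element core (CArG) in 0 and 1.29%. These are letters in short windows and were not tied to any change above.

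The question of whether heat acts differently once Lonp1 is silenced was tested as an interaction, the HS effect in siLonp1 minus that in scramble. It was below 0 for all 10 genes, against 51.1% of all genes, though KLF4 (-0.01) lay above 0 in 6 of 18 fits without 1 library. The median was -0.25 over the 10 genes and -0.0044 over all genes. Over KLF12 and KLF15, family members outside the list, it was 0.11. Of the 10, 3 passed the FDR limit, which 1.87% of all genes did. KLF6 differed by -0.67 (standard error 0.09, adjusted p = 4.6e-04), KLF11 by -0.66 (standard error 0.11, adjusted p = 0.00243) and KLF3 by -0.40 (standard error 0.10, adjusted p = 0.0295). For KLF11 the 2 effects had opposite signs and each passed on its own. The call of KLF3 was lost without Ctrl scramble replicate 1 (adjusted p = 0.0696) or 2 (0.107), Ctrl siLonp1 replicate 1 (0.0583), 2 (0.0729) or 3 (0.0633), and, in HS, without replicate 1 of scramble (0.107) or of siLonp1 (0.095).

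KLF2 had the largest difference, -0.80, with the widest error (0.25), and did not pass (adjusted p = 0.1), although it did with no filter on low counts (adjusted p = 0.00591), with only the groups compared (0.0111), with DESeq2 (0.0485) and without HS+REC scramble replicate 3 (0.0493). KLF4 differed by -0.01 (standard error 0.10, adjusted p = 0.98) and KLF10 by -0.17 (standard error 0.08, adjusted p = 0.307). The other 4 genes lay between -0.28 (KLF5) and -0.17 (KLF13). The 10 values come from the same 12 libraries, and Ctrl siLonp1 levels enter each of them. In this test LONP1 itself differed by -0.76 (adjusted p = 4.7e-04), and the part of this deeper silencing in HS in the KLF values was not tested.

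**Figure D4:**
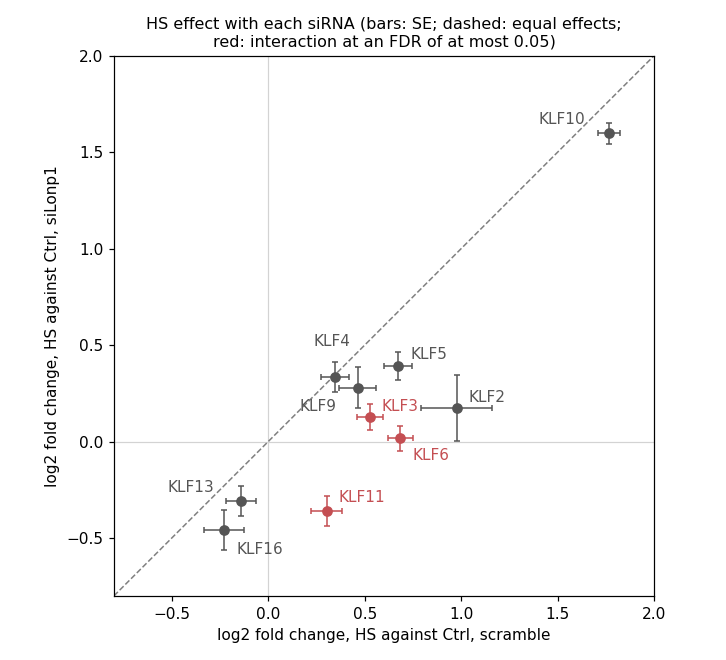
Log2 fold change with HS in siLonp1 (y axis) against that in scramble (x axis) for the 10 KLF genes, with standard errors as bars and equal effects as a dashed line. All 10 points lie on or under the line, and the 3 in red (KLF3, KLF6 and KLF11) had an interaction at an FDR of at most 0.05.

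For HS+REC against Ctrl the interaction passed for 2 genes, and for 1.58% of all genes. KLF10 differed by -0.43 (standard error 0.08, adjusted p = 0.00575), its remaining rise being present in scramble and not called in siLonp1. KLF11 differed by -0.44 (standard error 0.11, adjusted p = 0.0431), but this call was lost with RLE size factors (0.0502) and with only the groups compared (0.0725). Of the fits without 1 library it held only without HS scramble replicate 3, HS siLonp1 replicate 2, HS+REC scramble replicate 3 or HS+REC siLonp1 replicate 3, and the other 14 fits gave an adjusted p of at least 0.0503. The step from HS to HS+REC was compared between arms after the levels had been seen. It differed by 1.17 for KLF2 (standard error 0.25, adjusted p = 0.0138) and by 0.57 for KLF6 (standard error 0.09, adjusted p = 0.0014), where 1.38% of all genes passed. KLF2 was lost without HS scramble replicate 2 (adjusted p = 0.0528). LONP1 also differed in both tests, by 0.43 for HS+REC against Ctrl (adjusted p = 0.0321) and by 1.18 for the step from HS to HS+REC (adjusted p = 1.2e-06), and its part in these values was not tested.

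Of 8 further KLF genes, 7 had a row and only KLF12 and KLF15 reached the testing filter. KLF12, a repressor, lay between 10 and 21.5 CPM. It was not called with HS or HS+REC in scramble. In siLonp1 both raised it, as they did 19.6% and 23.7% of the 11680 genes above 1 CPM in all libraries. With siLonp1 KLF12 was higher in Ctrl, HS and HS+REC, against 26.9%, 28.5% and 27.0% of those genes. It passed no interaction. KLF15, a metabolic regulator of liver and muscle, lay between 0.356 and 1.31 CPM and exceeded 1 CPM only in heated scramble libraries, through which it passed the filter, so its values are given with no test. It averaged 0.835 ± 0.103 CPM in Ctrl scramble against 0.427 ± 0.122 in Ctrl siLonp1, and 1.13 ± 0.0982 against 0.503 ± 0.143 in HS+REC (SD, n = 3). Of the 9 SP genes, which encode relatives with the same kind of zinc fingers, 7 were tested. Of the 6 that exceeded 1 CPM in all libraries, HS in scramble raised 2 and lowered 2, where 18.4% of the 11680 genes above 1 CPM in all libraries were higher and 18.2% lower. The seventh, SP9, averaged 1.28 CPM in HS scramble against 0.44 CPM in Ctrl scramble. It stayed under 1 CPM in every Ctrl library and passed the filter through heated ones, so it is given with no test. SP5, a target of Wnt signalling, fell in HS by -0.43 in scramble (adjusted p = 0.00411) and by -1.05 in siLonp1 (adjusted p = 8.1e-08). In the interaction of siLonp1 and HS, SP5 differed by -0.62 (adjusted p = 0.0475), where 1.87% of all genes passed. The median of the 7 tested SP genes in that interaction was -0.25, as it was over the 10 KLF genes.

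Among the partners that the family recruits, all 8 genes of the SIN3 and histone deacetylase list were tested, and HS in scramble lowered 2 and raised 0, against 17.3% and 18.6% of all genes. SIN3A, the scaffold to which KLF9, KLF10, KLF11, KLF13 and KLF16 bind, went from 90.8 ± 3.81 CPM in Ctrl scramble to 67.7 ± 1.44 in HS and 38.4 ± 5.50 in HS+REC (SD, n = 3), a log2 fold change of -1.24 in HS+REC (adjusted p = 5.1e-11). In siLonp1 it fell by 1.43 (adjusted p = 4.7e-12). CTBP1 and CTBP2, the co-repressors of KLF3, were both lower in HS and in HS+REC in each arm, where between 17.3% and 26.6% of all genes were lower. Of 4 acetyltransferase co-activators, 3 rose with HS in scramble and 2 in siLonp1, and 0 fell, against 18.6% of all genes higher in scramble and 20.2% in siLonp1. Of the ERK5 and MEF2 genes upstream of KLF2 and KLF4, 4 of 6 were tested, and 1 rose and 0 fell with HS in scramble. Of 7 ubiquitin ligase genes that act on KLF2, KLF4 or KLF5, 2 rose and 3 fell with HS in scramble. For both lists the shares of all genes were 18.6% higher and 17.3% lower.

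Of 20 textbook targets of KLF2, KLF4, KLF5, KLF6 or KLF10, 15 were tested, and HS in scramble raised 6 and lowered 7, against 18.6% and 17.3% of all genes, with a median log2 fold change of -0.10 against -0.01 over all genes. CDKN1A, the cell cycle inhibitor that KLF4 and KLF6 activate, went from 4.78 ± 0.105 CPM in Ctrl scramble to 15.2 ± 1.51 in HS and 17.5 ± 2.12 in HS+REC, a log2 fold change of 1.67 in HS (adjusted p = 2.0e-10). SMAD7, the inhibitor of TGF-β signalling that KLF10 represses, rose by 1.22 in HS (adjusted p = 2.6e-11) and by 1.26 in HS+REC (adjusted p = 8.3e-12). PDGFA, a growth factor gene that KLF5 activates, fell by 2.01 in HS+REC (adjusted p = 1.6e-18). BMI1, a chromatin repressor gene, passed the 2-fold change only from HS to HS+REC in siLonp1, at 1.04 (adjusted p = 1.5e-05).

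Across the 18 libraries, the gene whose log2 CPM was most like that of KLF10 was MED26 (Pearson r = 0.979), followed by CNOT4 (0.978). ANXA1 (0.983) and DHRS2 (0.978) were most like KLF4, CACHD1 (0.984) and AMOTL2 (0.975) most like KLF5, and TGFBR2 (0.968) and CITED2 (0.966) most like KLF6. For KLF13 they were INHBB (0.969) and PLEKHG3 (0.966), and for KLF16 FIZ1 (0.959) and CARD10 (0.957). TICRR (0.949) and C5orf34 (0.939) were nearest to KLF9, VGF (0.936) and USF2 (0.921) to KLF2, ZNF595 (0.900) and SRBD1 (0.893) to KLF3, and APPBP2 (0.896) and SGK1 (0.870) to KLF11. The libraries share groups and scaling, so each r describes these 18 libraries and carries no test.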

How the data were processed

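RNA was extracted from SW620 cells, and stranded mRNA libraries (TruSeq) were sequenced as paired ends. The authors used STAR 2.7.3a to align reads to hg38 and featureCounts in R 3.6.3 to assign them to UCSC genes, per the labels and the methods of the study. The deposited values are raw counts per gene symbol with no normalization. The strand setting, the treatment of reads shared by genes and the removal of PCR duplicates are not given in the sources used here, so counting error is a lower limit. All 18 columns were assigned by name, and 0 columns belonged to no sample. The values of replicate libraries differed by more than counting error, and none was treated as a duplicate. The chi-square per degree of freedom between 2 replicates was 3.51 to 8.89 in Ctrl, 3.48 to 18.9 in HS and 14.7 to 25.8 in HS+REC. The test used 1 model over all groups, which shares its estimate of the spread. With only the groups compared, the genes called with siLonp1 went from 6938 to 5481 in HS+REC and from 6315 to 7426 in Ctrl.

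A gene was tested if its CPM exceeded 1 in 3 or more libraries (12832 of 26485). TMM scaling and the quasi-likelihood test of edgeR 4.0.16 (limma 3.58.1, R 4.3.3) were applied in 1 model over all 18 libraries, with a Benjamini-Hochberg FDR of at most 0.05 over all genes tested and a fold change above 2 given beside it. Fold changes used a prior count of 0.125 and correlations of log2 CPM a prior count of 2. The scripts were tested on simulated data. Other settings tried were DESeq2 1.42.0, RLE size factors, scaling by library size only, testing without a filter or with CPM above 1 in all libraries, FDR 0.01, a prior count of 2, a block for the replicate number, fits to only the groups compared, and fits without 1 library. Promoter sequences came from RefSeq (GRCh38.p14) and exon lengths from GENCODE v44.

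The KLF genes and all gene and motif lists (other KLF genes, SP genes, SIN3 and histone deacetylases, CtBP, co-activators, ERK5 and MEF2, ubiquitin ligases, targets, cell type markers) were chosen with earlier results of these data known. Named from the lists are genes past the FDR limit and a 2-fold change in at least 1 of the 9 comparisons of 2 groups, and for each KLF gene the 2 tested genes with the highest Pearson r. Named beside them to complete a count or list are KLF12, CTBP1, CTBP2, further KLF and SP genes given by level alone, and the markers. The comparison of the HS to HS+REC step between arms was added after the values were seen. Proteins were not analysed here, and 1 planned marker is not reported here.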

Additional observations from a re-analysis of the deposited data

Results flagged for a closer look

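A tested difference between the scramble and siLonp1 arms in the response to the same treatment (edgeR quasi-likelihood test of an interaction, Benjamini-Hochberg adjustment over all genes) picked out 5 of the 10 genes, 2 of them in more than 1 comparison. Of all genes, 1.87% passed this test for HS against Ctrl, 1.58% for HS+REC against Ctrl and 1.38% for HS+REC against HS. The share passing at least 1 of them was not counted. These comparisons share libraries, and the last equals the second minus the first, so passing in 2 of them is not 2 separate results. For HS against Ctrl, the log2 fold change in siLonp1 minus that in scramble was -0.67 for KLF6 (adjusted p = 4.6e-04), -0.66 for KLF11 (adjusted p = 0.00243) and -0.40 for KLF3 (adjusted p = 0.0295). KLF6 (-0.69 to -0.64) and KLF11 (-0.72 to -0.63) kept this call in each of the 18 fits that left out 1 library. KLF3 lost it in 7 of them, without Ctrl scramble replicate 1 or 2, any replicate of Ctrl siLonp1, or replicate 1 of HS scramble or of HS siLonp1 (adjusted p from 0.0583 to 0.107).

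For HS+REC against Ctrl the difference was -0.43 for KLF10 (adjusted p = 0.00575) and -0.44 for KLF11 (adjusted p = 0.0431), and the KLF11 call was lost in 14 of 18 fits without 1 library (adjusted p of at least 0.0503). For HS+REC against HS, a comparison added after the values were seen, it was 1.17 for KLF2 (adjusted p = 0.0138) and 0.57 for KLF6 (adjusted p = 0.0014), and KLF2 missed the limit without HS scramble replicate 2 (adjusted p = 0.0528).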

How the results depend on the processing

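No called value of the 10 genes changed sign under any setting, and no scaling moved the median of all genes by over 0.1 on the log2 scale. Of 120 values each (10 genes in 12 comparisons), 118 kept their call with RLE size factors, with CPM above 1 in all libraries and with DESeq2, 113 with only the groups compared, 112 with no filter, 109 with library size only, and all 120 with a prior count of 2. Of 2160 values without 1 library, 65 lost and 19 gained a call.

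Uncalled values changed sign 7 times with library size only, 1 time with only the groups compared and 24 times without 1 library. With library size only these were KLF6 (0.02 to -0.03) with HS and KLF10 (0.03 to -0.05) with HS+REC in siLonp1, and, with siLonp1, KLF3 (0.02 to -0.05) in Ctrl, KLF6 (0.03 to -0.07), KLF13 (0.07 to -0.03) and KLF16 (0.07 to -0.03) in HS and KLF10 (0.02 to -0.06) in HS+REC. KLF3 with HS+REC in siLonp1 (-0.02) was 0.0020 with only the groups compared. Without 1 library the most frequent were KLF4 in the interaction with HS (6 fits) and KLF5 (4 fits) and KLF16 (3 fits) in that with HS+REC, and the widest was KLF2 with HS+REC in scramble (0.13 to -0.15 without HS+REC scramble replicate 3).

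The count of 2 genes with an interaction of siLonp1 and HS+REC was 1 with RLE size factors, the replicate block, FDR 0.01 and only the groups compared, and 1 to 2 without 1 library. The count of 5 genes for siLonp1 in HS+REC was 3 at FDR 0.01 and with only the groups compared, and 3 to 6 without 1 library (3 without HS+REC siLonp1 replicate 3). The count of 2 genes for the added interaction was 1 at FDR 0.01, and 1 to 2 without 1 library (1 without HS scramble replicate 2). The causes were not tested.

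Counts of interactions over all genes moved most. That with HS, 240, was 497 with no filter, 440 with DESeq2, 735 with only the groups compared, 80 at FDR 0.01 and 98 to 526 without 1 library (lowest without HS scramble replicate 1, highest without HS scramble replicate 3). That with HS+REC, 203, was 385 with no filter, 317 with DESeq2, 57 at FDR 0.01 and 96 to 304 without 1 library (lowest without HS+REC scramble replicate 1, highest without replicate 3). The added one, 177, was 368, 297, 64 and, with only the groups compared, 90, and 85 to 306 without 1 library (lowest without HS scramble replicate 1, highest without HS+REC scramble replicate 3).

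Same-numbered replicates did not deviate together (45 pairs, r from -0.379 to 0.462, 10 above 0.1, against 25 of 90 pairs of different numbers), so no pairing by number was seen in these values. Whether same-numbered libraries were prepared together is not given in the sources used here. With the replicate block 116 of 120 values kept their call. KLF5 from HS to HS+REC in siLonp1 (adjusted p = 0.0511), KLF16 with siLonp1 in HS+REC (0.0568), KLF3 in the interaction with HS (0.0501) and KLF11 in that with HS+REC (0.0509) lost it.

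KLF2 had 75 to 340 counts per library, and its standard errors were 0.16 to 0.20 in comparisons of 2 groups, against 0.05 to 0.06 for KLF10. The parts of depth and of spread between replicates in these errors were not tested.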

Other observations

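Within the family, the log2 CPM of the 10 genes followed each other unevenly across the 18 libraries, which share groups and scaling. KLF13 and KLF16 were the most alike (Pearson r = 0.900), followed by KLF6 and KLF11 (0.836), KLF2 and KLF5 (0.813), KLF5 and KLF6 (0.791) and KLF3 and KLF9 (0.782). KLF4 ran opposite to KLF13 (-0.869) and KLF16 (-0.848). KLF10, with its peak in HS, was nearest to KLF3 (0.659) and had r = 0.0113 with KLF6.

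Of the further KLF genes with a row, 5 did not reach the testing filter. KLF1, the erythroid factor, had 1 to 8 counts per library and KLF7 up to 11. KLF8 had at most 7, KLF14 at most 2 and KLF17 at most 1. In the SP family SP1 lay between 115 and 162 CPM and SP3 between 97.5 and 186 CPM, while SP7 and SP8 did not exceed 5 counts in any library.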
